A study of Mus musculus with 16 samples.

Results

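The regions described here were promoters at which open chromatin was detected in every ATAC-seq library kept from C2C12-iMyoD1, a polyclonal population of the mouse myoblast line C2C12. Members were selected on the data: the strongest peaks of each of 14 kept libraries by −log10 p, as many per library as the shortest list held, were merged into 26213 union regions, and a region was retained when it held such a peak (a listed peak) in all 14 libraries, when its strongest summit lay within 1000 bp of an annotated transcript start, and when GC content within 100 bp of that summit was at least 50%. This left 3520 regions, or 13.4% of the union. A further 2414 regions held a listed peak in all 14 libraries but lay farther from a start (called distal here), 134 were promoters of lower GC content, and 6681 promoter regions held a listed peak in 1 to 13 libraries. In 1828 of those 6681 the full deposited lists held a peak in all 14, so being listed in fewer libraries means a weaker peak there and not always none.

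ATAC-seq uses a transposase that inserts sequencing adapters into accessible DNA. All cells carried an integrated Halo-tagged MyoD1 transgene under a doxycycline-responsive TRE3GS promoter, which only part of the nuclei express, beside their own Myod1 gene. Doxycycline (the +dox groups) or vehicle alone (the no dox groups) was given for 24 h. Proliferating cells stayed in growth medium with 20% fetal bovine serum (GM, 75000 cells seeded per well), and differentiating cells were serum starved for 24 h from the time of doxycycline addition (DM, 300000 cells seeded), so medium and seeding density cannot be told apart. Each GM group had 4 kept libraries and each DM group 3, since the first replicate of both DM groups was left out.

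Promoters of genes that every cell uses commonly lie in CpG islands, stretches rich in the CG dinucleotide that keep a nucleosome-depleted gap just upstream of the start. Such gaps are bound by widely expressed factors, among them SP1 and its relatives at GC boxes, NF-Y at CCAAT boxes, ETS factors, NRF1 and CREB. MyoD1 binds E-boxes, of which CAGCTG is its preferred form, and much of its binding in muscle cells lies away from promoters.

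Sequences of members are shown to make these elements visible. For each element, the protein-coding member with the highest mean fold enrichment that held it upstream of its start is given, 5′ to 3′ on the strand of the gene, with the element in capitals (on either strand) and without annotated exons. Bases and coordinates are from GRCm38, the assembly behind mm10. The first 3 hold the elements most frequent among members or typical of CpG-island promoters: a CCAAT box upstream of Zfp959, a zinc-finger gene, a GC box upstream of Lonp2, a peroxisomal protease, and an ETS element upstream of Cenpf, a kinetochore protein.
Zfp959, chr17:55891962-55892066, plus strand: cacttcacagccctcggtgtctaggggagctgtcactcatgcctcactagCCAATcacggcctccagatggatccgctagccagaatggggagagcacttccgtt
Lonp2, chr8:86623880-86623975, plus strand: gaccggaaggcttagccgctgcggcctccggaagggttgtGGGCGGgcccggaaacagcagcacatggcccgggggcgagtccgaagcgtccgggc
Cenpf, chr1:189688114-189688177, minus strand: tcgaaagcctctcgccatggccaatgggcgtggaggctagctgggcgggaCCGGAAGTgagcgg

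Rarer elements of the same class stood upstream of Hdac1, a histone deacetylase (NRF1), Rps29, a protein of the small ribosomal subunit (CRE, the cAMP response element), Cfdp1 (the CACGTG E-box of USF and MYC) and Fam208b (the BANP element, here as a palindrome of overlapping matches).
Hdac1, chr4:129542733-129542840, minus strand: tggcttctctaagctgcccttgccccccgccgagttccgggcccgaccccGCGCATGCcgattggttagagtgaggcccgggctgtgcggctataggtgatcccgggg
Rps29, chr12:69159193-69159294, minus strand: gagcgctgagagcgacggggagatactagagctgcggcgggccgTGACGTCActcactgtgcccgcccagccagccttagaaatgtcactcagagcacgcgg
Cfdp1, chr8:111854301-111854406, minus strand: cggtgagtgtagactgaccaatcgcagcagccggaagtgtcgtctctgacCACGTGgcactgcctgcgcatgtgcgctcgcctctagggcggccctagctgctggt
Fam208b, chr13:3611223-3611298, minus strand: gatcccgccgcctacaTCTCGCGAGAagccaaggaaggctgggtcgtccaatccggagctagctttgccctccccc

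The MyoD1 E-box and the AP-1 site, both more frequent in distal regions, are shown for members chosen by the same rule, at Calr, an endoplasmic reticulum chaperone, and Cuedc1.
Calr, chr8:84846935-84847028, minus strand: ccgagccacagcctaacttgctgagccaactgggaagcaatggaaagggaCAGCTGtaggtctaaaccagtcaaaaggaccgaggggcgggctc
Cuedc1, chr11:88187598-88187663, plus strand: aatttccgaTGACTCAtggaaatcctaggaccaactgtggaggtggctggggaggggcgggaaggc

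GC boxes and CCAAT boxes were the commonest elements in the members, and AP-1 sites and CAGCTG E-boxes were found in a smaller share of members than of distal regions. In all, 14 short elements were searched on both strands within 100 bp of each summit, and a match is only an occurrence of these letters. GGGCGG (GC box) was found in 68.8% of members and CCAAT in 49.0%. Of all protein-coding promoters with GC content of at least 50%, measured in windows of the same length placed 51 bp upstream of the start, 55.3% held GGGCGG and 29.4% held CCAAT. Promoter regions listed in 1 to 13 libraries held them in 56.0% and 26.4%. Distal regions open in every library held GGGCGG in 10.2% and CCAAT in 22%. CCAAT stood in 42.5% of the 134 promoters of lower GC content listed in every library. Because members were chosen for GC content and for position, differences from distal regions in GC-rich elements partly follow from the choice. The GC-rich coding promoters had the same GC minimum as the members. The shares of elements are descriptions, with no test.

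CAGCTG was present in 11.2% of members, against 12.2% of GC-rich coding promoters and 25.1% of distal regions open in every library. TGACTCA, the site of the AP-1 family of FOS and JUN proteins, was present in 5.74% of members, 2.35% of GC-rich coding promoters and 49.8% of those distal regions. In promoter regions listed in 1 to 13 libraries CAGCTG stood in 13.1% and TGACTCA in 9.37%. In the 134 promoters of lower GC content listed in every library the shares were 12.7% and 30.6%. At least 1 of CAGCTG and TGACTCA was found in 553 members (15.7%) and in 1524 distal regions (63.1%), and both together in 42 members and 285 distal regions. CATTCC, the M-CAT element of TEAD factors, was found in 8.61% of members and 25% of distal regions. It stood in 9.53% of promoter regions listed in 1 to 13 libraries and in 21.6% of the promoters of lower GC content. TATAAA, which positions transcription at many regulated promoters, was found in 2.05% of members, 4.28% of GC-rich coding promoters and 5.59% of distal regions. It stood in 2.86% of promoter regions listed in 1 to 13 libraries and in 8.96% of the promoters of lower GC content.

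The remaining elements were less frequent. CACGTG was found in 8.24% of members, CCGGAAGT (ETS) in 7.10%, GCGCATGC (NRF1) in 4.26% and TGACGTCA (CRE) in 3.07%. TCTCGCGA (BANP) stood in 3.04% of members, against 1.57% of GC-rich coding promoters and 1.66% of promoter regions listed in 1 to 13 libraries. AAGATGGCG (YY1) was in 1.99%, TTTNGCGC (E2F) in 1.70% and ACTACAATT (ZNF143) in 0.710%. The shares in GC-rich coding promoters were 7.40% for CACGTG, 5.76% for CCGGAAGT, 3.94% for GCGCATGC, 2.84% for TGACGTCA and 2.00% for AAGATGGCG. In promoter regions listed in 1 to 13 libraries they were 7.95%, 7.14%, 4.43%, 2.96% and 2.74% in the same order. These lay near or above the shares in members. TTTNGCGC and ACTACAATT stood in 1.56% and 0.464% of those promoter regions. At least 1 of the 10 elements that mark promoters (all but the MyoD1, AP-1, TEAD and TATA elements) was found in 3103 members, or 88.2%, and in 807 distal regions, or 33.4%. Some letters overlap between elements, as when a CCAAT box adjoins a GC box, and each was counted.

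**Figure D1:**
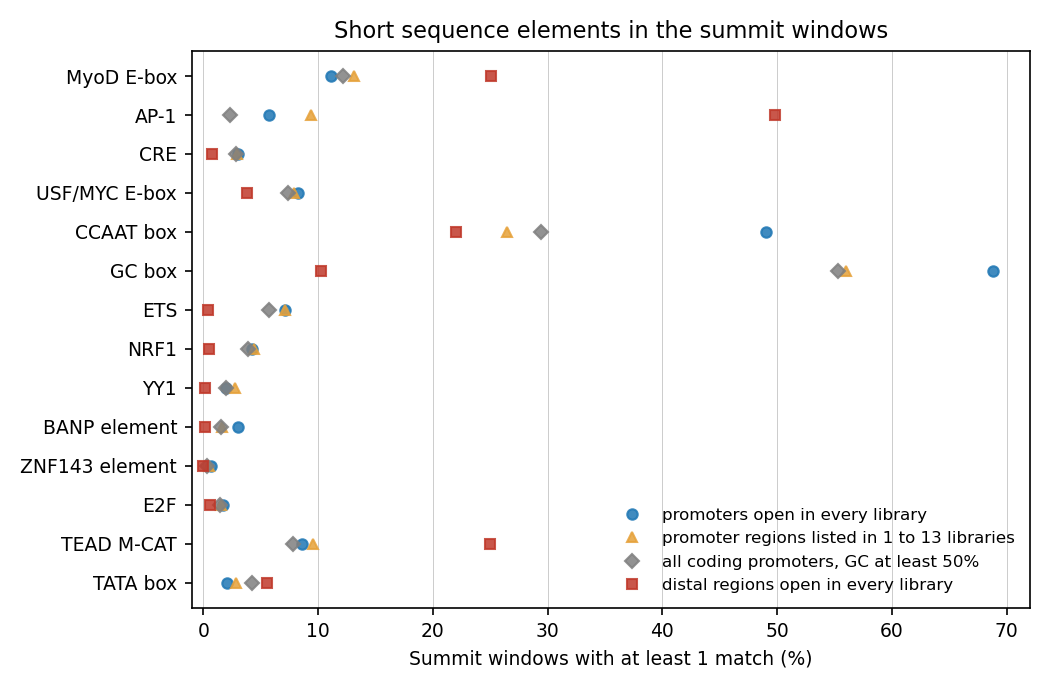
Share of windows of 100 bp on either side of the summit (x axis, percent) that hold at least 1 match to each of 14 short elements (y axis), for 4 sets of regions. Members (circles) lie right of the other 3 sets shown for the CCAAT box (49.0%) and the GC box (68.8%), and distal regions (squares) lie far right for AP-1 (49.8%), the MyoD E-box (25.1%) and TEAD M-CAT (25%).

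The elements had typical places relative to the start. Matches to CCAAT in members at protein-coding starts had a median position of −69 bp (negative is upstream, quartiles −125 and −27), and 84.3% lay upstream. GC boxes had a median of −53 bp and ETS elements of −23 bp. YY1 elements had a median of +19 bp, and only 30% of them lay upstream. TATAAA matches had a median of −28 bp (quartiles −135 and −16), with 69 matches in all. These positions are measured inside windows centred on the summit, so their spread is bounded by the window.

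Members with a CCAAT box had a median log2 fold enrichment, averaged over the 14 libraries, of 3.96, and members without one 3.86. For CAGCTG these medians were 3.84 with and 3.91 without, and for TATAAA 3.76 with and 3.91 without. Fold enrichment is the fragment pileup at the summit over the local background, as MACS2 gives it. The gaps are small beside the interquartile range of all members, 3.73 to 4.06, and were not tested, since regions are not replicates.

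Summits sat just upstream of the start. Of the 3520 members, 3372 (95.8%) lay at a protein-coding transcript start, and 148 lay only at starts of other kinds, of which 66 were lincRNAs. At the protein-coding starts the median summit was 51 bp upstream (offset −51 bp, quartiles −109 and −3), 77% of summits were upstream and 65.9% were within 100 bp. In the 6026 promoter regions at protein-coding starts listed in 1 to 13 libraries the median offset was −25 bp, 67.5% were upstream and 70.4% within 100 bp. The summit base of 1629 members (46.3%) fell between genes, of 942 (26.8%) in an untranslated part of a coding transcript's exon, of 631 in an intron, of 249 in an exon of a non-coding transcript and of 69 in a coding exon. The limit of 1000 bp and the GC limit at the summit were part of the choice, but the place of summits within 1000 bp was not set directly. Promoters of lower GC content listed in every library had a median offset of −127 bp at protein-coding starts, with 24.7% within 100 bp. The promoter regions listed in 1 to 13 libraries had no GC limit.

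**Figure D2:**
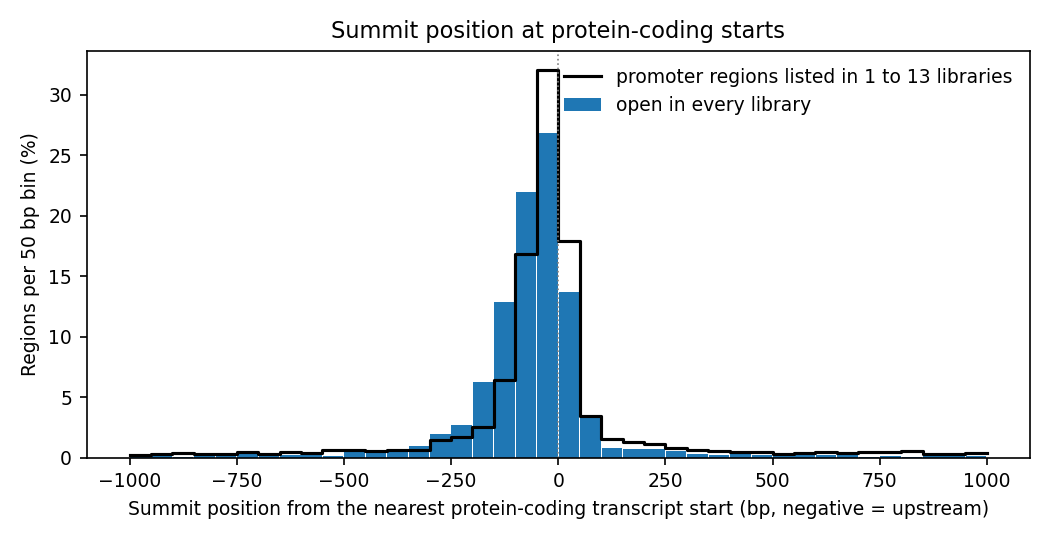
Position of the summit from the nearest protein-coding transcript start (x axis, bp, negative is upstream) as percent of regions per 50 bp bin (y axis), for members (bars) and promoter regions listed in 1 to 13 libraries (line). Members peak in the same bin as the others but have more of their summits farther upstream, with a median of −51 bp against −25 bp. The regions of the line had no GC limit.

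Some members were shared between genes. Starts of different protein-coding genes on opposite strands were found at 533 members, or 15.1%, against 7.83% of promoter regions listed in 1 to 13 libraries. Whether such starts pointed away from each other was not checked. In all, 568 members lay within 1000 bp of starts of 2 or more protein-coding genes, and 68 genes had 2 or more members. Members lay on 20 chromosomes, with 54 on chromosome X. The observed to expected ratio of the CG dinucleotide, which corrects for base composition, had a median of 0.827 in members, 0.791 in promoter regions listed in 1 to 13 libraries and 0.230 in distal regions open in every library. Peaks in members had a median width of 620 bp, against 535 bp in distal regions open in every library. The summits of different libraries in 1 member deviated by a median of 9.5 bp from that member's median summit, against 12 bp in those distal regions and 20 bp in promoter regions listed in 1 to 13 libraries.

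Of 21911 protein-coding genes, 3888 (17.7%) had a member. The share was above this value in each list of basic cell functions and below it for sarcomere genes. DNA replication genes had a member for 26 of 43 (60.5%), chaperonin and heat-shock chaperone genes for 13 of 20 (65.0%), and immediate early genes for 11 of 20 (55%). Cytosolic tRNA synthetases had one for 10 of 20 (50%), splicing factors for 33 of 73 (45.2%), and cyclins, CDKs and their inhibitors for 20 of 47 (42.6%). Translation initiation factors (17 of 51, 33.3%), proteasome subunits (12 of 39, 30.8%), RNA polymerase II and Mediator (21 of 70, 30%) and oxidative phosphorylation (28 of 94, 29.8%) followed. Cytosolic ribosomal protein genes, among the most transcribed of all, had a member for 21 of 82 (25.6%). Those of the mitochondrial ribosome had one for 18 of 78 (23.1%). In these ribosomal lists 52 and 49 further genes had promoter regions listed in some libraries. The shares are counts of genes and carry no test.

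The following examples were picked list by list, as the members with the highest mean fold enrichment in a gene list. Their spread over several of these groups therefore follows from the picking. They were not the highest of all members, which are given further below. Snrnp25, of the minor spliceosome, had a mean fold enrichment of 21.4 over the 14 libraries, with values from 10.3 to 31.0. Rps29 had 21.1 (9.14 to 31.1), and the shared promoter of Rpa3, a subunit of the single-strand DNA binding protein RPA, with Umad1 had 20.4 (11.1 to 25.7). Ccnf and Ccna2, both cyclins, had 19.9 and 19.7. Tars, the threonyl-tRNA synthetase, had 19.8, and Gins4, of the replicative helicase, 19.7. Some of these examples were promoters shared between genes, as were 568 of the 3520 members. Among them were Tcp1 of the chaperonin with Mrpl18 (19.3), Eif2a with Serp1 (19.3), Psma2 of the proteasome with Mrpl32 (18.4), and Gtf2e1, a general transcription factor, with Rabl3 (18.6). These values belong to the promoter region and cannot be divided between both genes.

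Genes of the sarcomere and muscle structure were mostly outside the set. Of 44 such genes 4 (9.09%) had a member, and they were Actn3 (through a promoter shared with Zdhhc24), Myom1, Tpm1 and Tpm3. No region of the union lay at the start of 34 of them. Of 23 myogenic regulators and partners 7 (30.4%) had a member, against 17.7% of all protein-coding genes. Among them were Myod1, its E-protein partner Tcf3, the inhibitors Id2, Id3 and Id4, and Tead4. Of the 11 genes singled out in the study 2 had a member, Myod1 and Id3. A listed peak, one of the strongest, was present at Mef2a in 11 of 14 libraries, at Itga3 in 4, at Cdh15 in 3, at Cdh23 in 2 and at Mcam in 1. In the full deposited lists a peak was present at Mef2a in all 14, at Itga3 and Cdh23 in 12 each, at Cdh15 in 10 and at Mcam in 9. Of 5 myoblast markers (Myod1, Myf5, Des, Cdh15, Mef2a) only Myod1 had a member. Of 15 markers of blood, endothelial, epithelial, liver, neural and islet cells none had a member and 1 had a promoter region listed in some libraries, and of 1092 olfactory receptor genes none had a member.

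The highest mean fold enrichment belonged to Kifap3, a kinesin-associated protein, whose promoter had 22.7. It was followed by the predicted genes Gm5165 (22.5), Gm26611 (22.5) and Gm32618 (22.1). The lowest belonged to Junb, an AP-1 subunit and immediate early gene, with 4.37, whose values ran from 2.7 in GM no dox replicate 1 to 5.5 in DM +dox replicate 2. A region 581 bp upstream of Mir22 (5.49) and 2 regions at alternative starts of the cytoskeletal linker Plec (5.55 and 5.79) were next. Members were ranked for selection by −log10 p within a library, and fold enrichment was not used in the choice, although both come from the same pileup.

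Values near the limits of the choice were close to one another. Just inside the GC limit stood Mcm3 and Glrx2 (50.2%), and just outside Dhrs7b and 4930447K03Rik (49.8%). Just inside the distance limit stood Gm12216 (998 bp) and Fmnl3 (989 bp), and just outside a pair of regions at 1002 bp from the nearest start. Margins over the last listed peak were taken in the libraries whose lists were cut, so without GM no dox replicate 1. In the library where the margin was least, Aimp1 and Rplp1 exceeded that peak by 0.0303 and 0.0371 in −log10 p. Hist1h4c tied with it and Psmc3ip fell short by a difference of −0.0025.

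Fold enrichment differed more between libraries than between kinds of region. Median fold enrichment over members was 6.78 in GM no dox replicate 1, 17.7 in replicate 2, 10.7 in replicate 3 and 16.7 in replicate 4. In GM +dox these medians were 17.2, 18.7, 15.7 and 15 in replicates 1 to 4. In DM no dox they were 12.4, 12.2 and 16.9, and in DM +dox 21.8, 18.5 and 18, in replicates 2 to 4. GM no dox replicate 1 was the lowest of all and also had the shortest list, which set the length of all others. Background coverage, an estimate of depth from fold and p, lay between 0.339 and 1.13 fragments per base in the kept libraries, and its part in the medians was not tested.

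Members and distal regions open in every library were therefore compared inside each library. The log2 ratio of the median in members to the median in distal regions was −0.16 in GM no dox replicate 1 and 0.04, 0.08 and 0.10 in replicates 2 to 4. It was −0.01, 0.01, 0.09 and 0.17 in GM +dox, 0.06, 0.11 and 0.11 in DM no dox, and 0.08, 0.11 and 0.13 in DM +dox. The groups overlapped in all 4 comparisons. The group means differed by 0.05 between +dox and no dox in GM and by 0.01 in DM, and between DM and GM by 0.08 in the absence and 0.04 in the presence of dox. In the same order these differences were 0.04, 0.01, 0.02 and −0.01 within replicate numbers 3 and 4, and 0.05, 0.02, 0.12 and 0.08 within numbers 1 and 2.

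The share of the very strongest peaks at members varied between libraries and was under 50% in 3 of them. Of the 1000 strongest peaks, 33.7%, 58.1%, 63.6% and 75.4% lay in members in GM no dox replicates 1 to 4, and 48.8%, 45.2%, 70.0% and 77.7% in GM +dox. In DM no dox the shares were 66.4%, 68.6% and 79.0%, and in DM +dox 63.1%, 78.3% and 81.6%, in replicates 2 to 4. In each group the libraries numbered 3 and 4 had higher shares than those numbered 1 and 2. The labels do not say what the numbers stand for beyond biological replicate. Distal regions open in every library held 50.4% of these peaks in GM no dox replicate 1, 46.4% in GM +dox replicate 2 and between 12.4% and 42.2% in the other kept libraries. These ranks come from the same −log10 p that chose the members, so the shares are a description and support nothing.

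**Figure D3:**
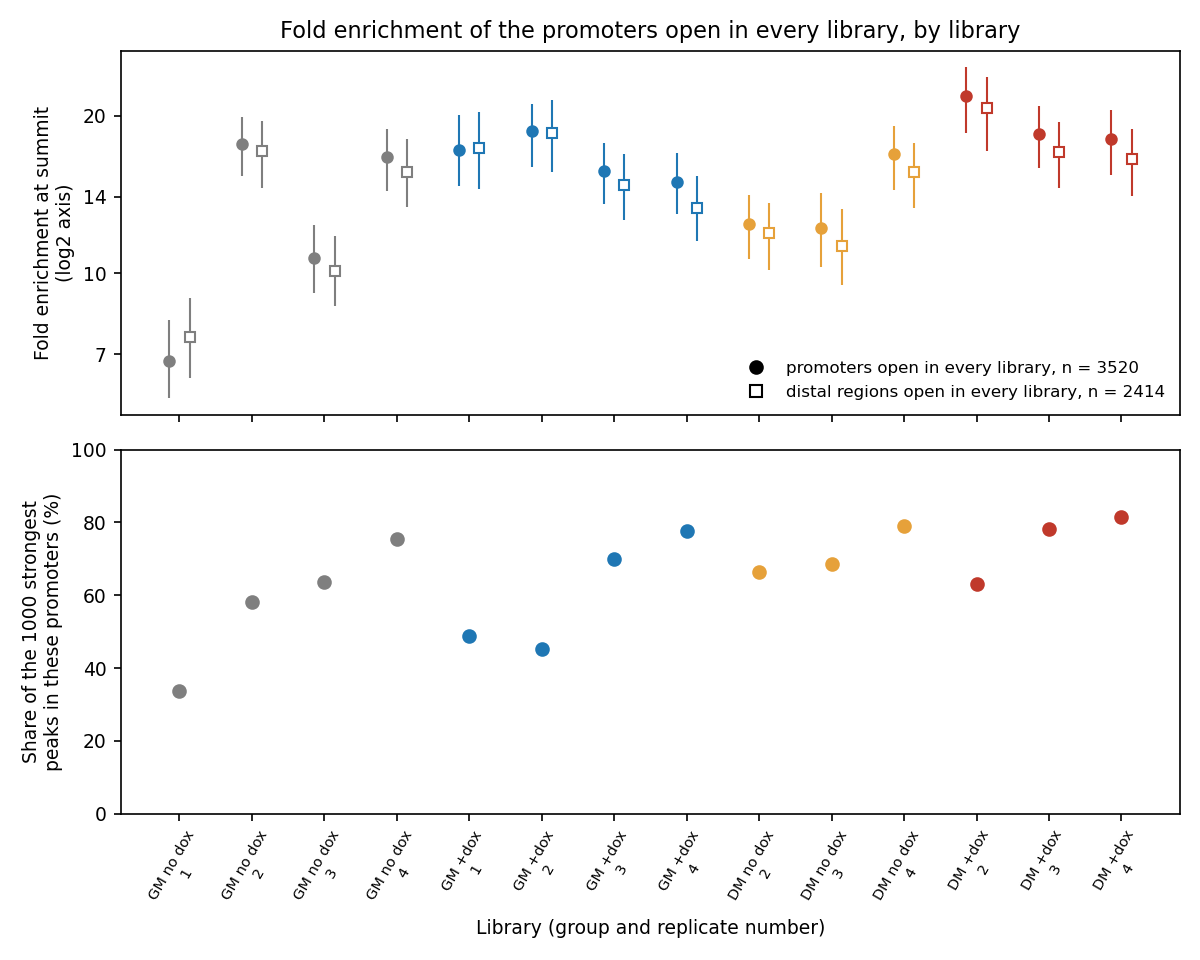
Top, median fold enrichment with quartiles as bars (y axis, log2 scale) for 3520 members (filled) and 2414 distal regions (open) in each of 14 libraries (x axis). Bottom, share of the 1000 strongest peaks that lie in members (y axis, percent). GM no dox replicate 1 has the lowest median (6.78) and the lowest share (33.7%).

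The libraries left out were not used to choose members and give a view of the same regions. DM +dox replicate 1, with 14236 peaks and a background of 0.167 fragments per base, held a peak in 2899 of 3520 members (82.4%, 95% Wilson interval 81.1 to 83.6). It held one in 86.3% of distal regions open in every kept library and in 34.0% of promoter regions listed in 1 to 13 libraries. DM no dox replicate 1, with 1287 peaks, held a peak in 653 members (18.6%, interval 17.3 to 19.9), in 16.2% of those distal regions and in 1.18% of promoter regions listed in 1 to 13 libraries. Of its 1287 peaks, 657 (51.0%) lay in members. Intervals cover counting error only.

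Whether doxycycline or differentiation changed accessibility of these promoters relative to other regions was tested with limma on quantile-normalised log2 fold enrichment. The fit covered the 11009 regions with a deposited peak in all 14 libraries, members included. Quantile normalisation gives every library the same distribution of values, so a shift shared by all tested regions is removed and cannot appear in the results. Every member was tested, because the choice required a peak in every library. The same requirement keeps out promoters that were closed in a group, so nothing is read from shares of members below those of all regions. With Benjamini-Hochberg adjustment over all 11009 regions no member passed an adjusted p of 0.05 in any of the 4 comparisons or in their interaction. This main fit did not pair libraries by replicate number. With that number as a block 2 members were called, both for differentiation without dox, beside 133 of all tested regions. In the main limma fit the lowest adjusted p of a member was 0.80 for +dox against no dox in GM and 0.50 in DM. It was 0.057 for DM against GM in cells without dox, 0.23 in cells with dox and 1.00 for the interaction.

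For dox in GM, 0 members were called, with a background of 0% of tested regions higher and 0% lower. At an unadjusted p under 0.05 there were 152 members (4.32%), against 6.12% of all tested regions. Groups did not overlap, with +dox higher, at 38 members (1.08%, all regions 1.22%) and, with +dox lower, at 20 (0.568%, all regions 1.2%). The median difference over members was 0.03 on the log2 scale (5th to 95th percentile −0.18 to 0.26), and over all regions 0.00. The members' median was −0.01 once GM no dox replicate 1 was dropped, and 0.00 if instead replicate 4 of GM +dox was. The 95% interval of the difference lay within 2-fold for all 3520 members. Leaving out GM no dox replicate 4 gave 1 member called, Grpel2, with a difference of 0.82 and an adjusted p of 0.023 in limma, beside 0.0545% of all regions higher (6 regions) and 0% lower.

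For dox in DM, 0 members were called, and 0% of tested regions were called higher and 0% lower. An unadjusted p under 0.05 was found for 141 members (4.01%), against 6.7% of all regions. Groups did not overlap at 186 members with +dox higher (5.28%, all regions 6.26%) and at 246 with +dox lower (6.99%, all regions 8.09%). The median difference was −0.01 (−0.26 to 0.25), and the 95% interval lay within 2-fold for 3519 members.

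For differentiation without dox, 0 members were called, against 0.0273% of all regions higher in DM and 0.236% lower, or 3 and 26 regions. An unadjusted p under 0.05 was found for 197 members (5.60%), against 11% of all regions. Groups did not overlap at 138 members with DM higher (3.92%, all regions 3.82%) and at 28 with DM lower (0.795%, all regions 4.4%). The median difference was 0.06 (−0.17 to 0.31), and the 95% interval lay within 2-fold for 3519 members. That median was 0.03 without GM no dox replicate 1 and 0.02 with a correction for GC content. With the replicate number as a block, 2 members were called, 1 higher and 1 lower, beside 0.309% of all regions higher and 0.899% lower (34 and 99 regions). Without GM no dox replicate 4, 2 members were called higher, Man1b1 and Pld2, with adjusted p of 0.049 and 0.046 in limma, beside 0.164% of all regions higher and 0.363% lower (18 and 40 regions).

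For differentiation with dox, 0 members were called, against 0% of all regions higher and 0.0454% lower. An unadjusted p under 0.05 was found for 68 members (1.93%), against 7.5% of all regions. Groups did not overlap at 142 members with DM higher (4.03%, all regions 5.07%) and at 108 with DM lower (3.07%, all regions 5.94%). The median difference was 0.02 (−0.18 to 0.23), its sign turned with a correction for GC content (−0.01) and it was 0.01 without GM +dox replicate 1, and the 95% interval lay within 2-fold for 3517 members. With array weights, which let limma down-weight noisier libraries, 15 members were called, 10 higher and 5 lower, beside 0.672% of all regions higher and 1.92% lower (74 and 211 regions). For the interaction 0 members were called (0% of regions higher and 0% lower), with 48 members at an unadjusted p under 0.05 (1.36%, all regions 2.2%) and intervals within 2-fold for 3497. GM no dox is shared by dox in GM and differentiation without dox, and each other group likewise enters 2 comparisons. With median centring, which also removes a shared shift, the 95% intervals lay within 2-fold for at least 3512 members in each comparison and the interaction.

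Distal regions open in every library met the same requirement of a peak in all 14 and are the nearer comparison. At an unadjusted p under 0.05 they counted 6.34% for dox in GM and 6.21% for dox in DM, against 4.32% and 4.01% of members. Between DM and GM they counted 7.46% in the no dox and 5.72% in the +dox libraries, against 5.60% and 1.93% of members. Of the 2414 distal regions 1 was called, lower in DM without dox, and 0 in the other comparisons, by limma. The median SD within groups was 0.17 in members and 0.18 in these distal regions, and 0.25 in the 1828 promoter regions listed in fewer libraries that had a deposited peak in all 14. The share difference was not tested, since regions are not replicates.

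**Figure D4:**
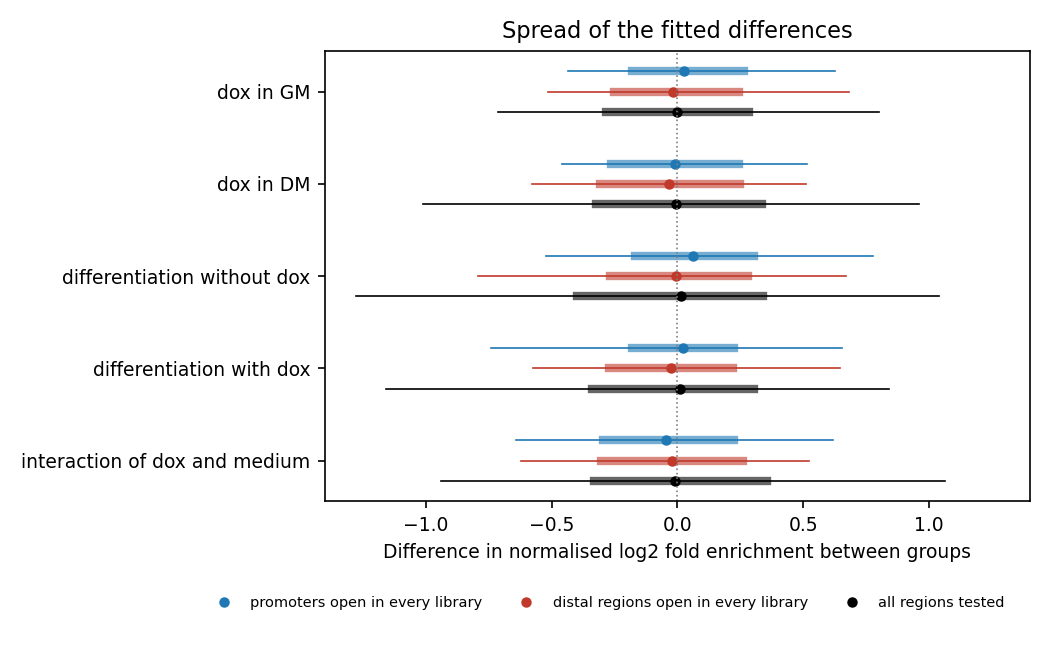
Difference in normalised log2 fold enrichment (x axis) in 4 comparisons and their interaction (y axis), with the median as a point, the 5th to 95th percentile as a thick line and the full range as a thin line. Members run from −0.74 to 0.78 over the 4 comparisons, and all regions tested from −1.28 to 1.04.

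Id2 and Id3 encode inhibitors that bind E-proteins and keep MyoD1 from DNA. Both were members, and the normalised log2 fold enrichment of both was higher in every DM +dox library than in every GM +dox library, without passing the adjusted threshold. At Id2 (chr12:25096002-25096498, summit in an untranslated exon) the values were 2.80, 2.90, 3.01 and 2.92 in GM no dox and 2.56, 2.74, 2.54 and 3.06 in GM +dox. In DM no dox they were 3.17, 3.42 and 3.34, and in DM +dox 3.44, 3.25 and 3.44. Neither pair of GM and DM groups overlapped. In libraries made from many cells, more cells with an open promoter and more cutting per open promoter cannot be told apart. The Id2 difference was 0.65 ± 0.18 (SE) with dox, interval 0.29 to 1.01, limma adjusted p = 0.23, and 0.40 ± 0.18 without dox, limma adjusted p = 0.38. It depended on the measure: with log2 of −log10 p it was 0.28 with dox and −0.035 without dox.

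At Id3 (chr4:136143231-136144070, summit in an untranslated exon) the values were 3.30, 2.83, 3.28 and 2.64 in GM no dox and 2.37, 2.79, 2.69 and 2.78 in GM +dox. They were 3.58, 3.73 and 3.43 in DM no dox and 3.37, 3.27 and 3.27 in DM +dox. Again the DM libraries lay above the GM libraries under either treatment. The Id3 difference was 0.64 ± 0.19 with dox, interval 0.25 to 1.03, limma adjusted p = 0.28, and 0.57 ± 0.19 without dox, interval 0.18 to 0.95, limma adjusted p = 0.23. With log2 of −log10 p as the measure, the Id3 difference was 0.38 with dox and 0.24 without dox. For dox the difference in log2 fold enrichment was −0.36 in GM and −0.28 in DM at Id3, and −0.18 and 0.07 at Id2, none past the threshold. Id1 was no member, with a listed peak at its start in 10 of 14 libraries and a deposited peak in all 14.

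Myod1 was a member through a region at chr7:46376694-46377286, with its summit 597 bp downstream of the start in the coding exon. The transgene holds Myod1 coding sequence, so fragments from it and from the gene cannot be told apart there. The values were 4.38, 3.40, 3.85 and 3.18 in GM no dox and 2.93, 3.41, 3.48 and 3.29 in GM +dox. In DM no dox they were 3.53, 3.68 and 3.26, and in DM +dox 3.52, 3.09 and 3.09. All groups overlapped. The Myod1 difference was −0.43 ± 0.20 for dox in GM, interval −0.84 to −0.01, and limma adjusted p = 0.80. Without GM no dox replicate 1, whose value of 4.38 was the highest, the Myod1 difference was −0.21 for dox in GM and 0.02 for DM against GM in no dox libraries. It was −0.26 for dox in DM, and between DM and GM −0.21 in the no dox and −0.04 in the +dox libraries.

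By lowest p, the members most apart for differentiation without dox were Rab40b, a RAB-family GTPase, and Txnip, a thioredoxin-interacting protein, on the lower side, and Man1b1, a mannosidase of glycoprotein quality control, and Pld2, a phospholipase, on the higher side. At Rab40b the values were 4.02, 4.29, 4.08 and 4.19 in GM no dox and 3.65, 3.41 and 3.80 in DM no dox, with no overlap. Rab40b had a difference of −0.52 ± 0.12, interval −0.77 to −0.27, and a limma adjusted p of 0.057. With the replicate block its adjusted p was 0.016. At Man1b1 the values were 3.61, 3.73, 3.64 and 3.93 in GM no dox and 4.13, 4.25 and 4.36 in DM no dox, with a difference of 0.52 (interval 0.25 to 0.79) and a limma adjusted p of 0.084. Pld2 had 0.63 (0.29 to 0.97) and Txnip −0.42 (−0.66 to −0.17). In all 4 the GM and DM libraries without dox did not overlap.

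For differentiation with dox the members with the lowest p beside Id2 were Gpatch2l on the higher side, and on the lower side Ifi211, an interferon-inducible gene, and Zfp330, a zinc-finger gene. At Zfp330 the values were 4.17, 3.51, 3.90 and 3.89 in GM +dox and 2.76, 3.30 and 3.33 in DM +dox, with no overlap. Zfp330 had a difference of −0.74 (interval −1.15 to −0.33) and a limma adjusted p of 0.23. Gpatch2l had 0.40 (0.16 to 0.64) and Ifi211 −0.44 (−0.68 to −0.19). All of these passed the threshold with array weights.

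For dox in GM the lowest p on the higher side belonged to Grpel2, a mitochondrial import co-chaperone, and the predicted gene Gm37542. At Grpel2 the values were 2.92, 3.55, 3.52 and 4.07 in GM no dox and 4.10, 4.10, 4.19 and 4.18 in GM +dox, with no overlap. Grpel2 had a difference of 0.63 (0.30 to 0.96) and a limma adjusted p of 0.80. In GM no dox replicate 1 its fold enrichment was 4.4, and in replicate 4 it was 18.4. Ggnbp2 (−0.43) and Tpmt (−0.29), the latter a thiopurine methyltransferase, were on the lower side, and their groups overlapped.

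For dox in DM the lowest p on the higher side belonged to Stn1, of the CST complex at telomeres, and Ero1lb, an oxidoreductase of the endoplasmic reticulum. At Stn1 the values were 4.17, 3.90 and 4.48 in DM no dox and 4.73, 4.54 and 4.55 in DM +dox, without overlap. Stn1 had a difference of 0.43 (0.17 to 0.68) and a limma adjusted p of 0.50, and Ero1lb had 0.45 (0.18 to 0.73). On the lower side stood Pdcd10, which shares its promoter with Serpini1, with −0.41 (−0.70 to −0.13), and the predicted gene Gm27782 with −0.34 (−0.58 to −0.09).

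**Figure D5:**
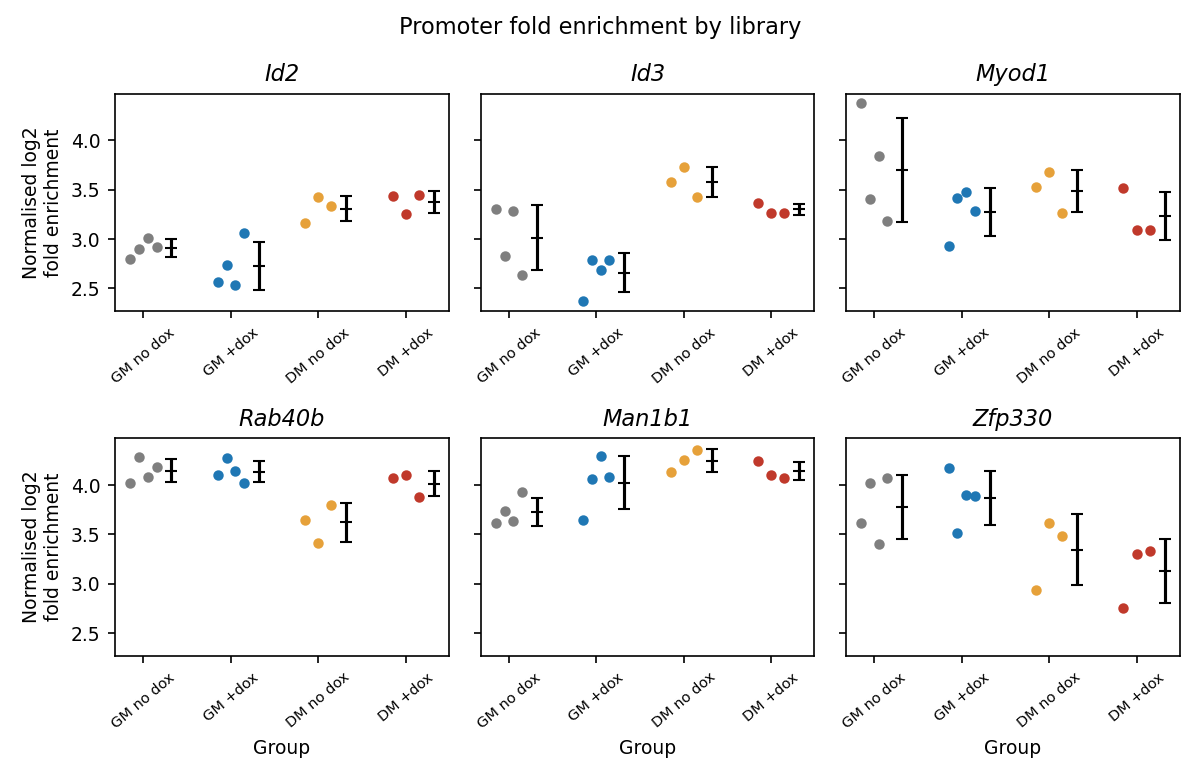
Normalised log2 fold enrichment (y axis) of 6 named members in each kept library, by group (x axis), with the group mean and SD beside the points (n = 4 in GM groups, n = 3 in DM groups). Among libraries of the same dox treatment, Id2 and Id3 are higher in DM than in GM without overlap. Myod1 overlaps in all groups, and none of the 6 passed the adjusted threshold.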

How the data were processed

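ATAC-seq was performed in 16 libraries of C2C12-iMyoD1 cells in 4 groups with biological replicates 1 to 4. The labels do not say whether replicates were separate cultures. Per the study's methods, the authors ran the nf-core/atacseq pipeline on mm10, removed blacklisted regions and called peaks with MACS2, library by library, and set replicate 1 of both DM groups aside as quality outliers. The MACS2 version is not given in the sources used here. The deposited lists give, for each peak, a score, a fold enrichment (ratio) and −log10 values of p and q. The deposited score was only read, not used. The authors' −log10 p ranked the peaks, and their fold enrichment was the measure compared.

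Lists were cut to the length of the shortest kept list, and overlapping or touching peaks were merged. Sequence was from GRCm38 and transcripts were from GENCODE M21. No peak ran past a chromosome end. The deposited lists hold no read counts, so no count model was fitted. MACS2 adds 1 to pileup and background, which narrows folds in shallow libraries.

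Differences were fitted with limma 3.58.1 in R 4.3.3 (group means, 14 libraries, quantile normalisation, empirical Bayes, two-sided, Benjamini-Hochberg over 11009 regions). Same-numbered libraries deviated together in every pair (correlation of deviations from group means 0.170 to 0.487). For replicate 4 of dox in GM a library of another number correlated more strongly. The main fit was unpaired, and a fit with the number as a block was made beside it. Alternatives were other normalisations, measures, filters, library sets and thresholds.

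Named members were chosen by rule: the lowest p in each direction of each comparison, the highest and lowest mean fold enrichment, those nearest the limits of the choice, the 2 highest of each gene list, genes singled out in the study, and the strongest holder of each element under the limits set for sequences. Members, gene lists and elements were chosen with earlier results of these data known.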

Additional observations from a re-analysis of the deposited data

Results flagged for a closer look

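One value stood apart among the 4 libraries of its group. At Gm26611, a predicted gene with one of the highest mean fold enrichments, the normalised log2 fold enrichment was 4.42 in GM +dox replicate 1, against 4.50, 4.51 and 4.51 in the other libraries, a gap of 0.847 of the group's range, above Dixon's 95% critical value for 4 values. In all, 58 sets of 4 libraries were examined, and chance alone flags about 1 in 20.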

How the results depend on the processing

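The number of members depended on the length of the peak lists and on the libraries: 1555 with shorter lists that held only the stronger peaks and 622 with a peak in all 16 libraries, against the 3520 reported. Other settings gave 2971 (ranking by fold enrichment) to 5178 (all deposited peaks), and leaving out 1 library gave 3525 to 4048, the highest without GM no dox replicate 1. The 140 alternatives to the reported fits included the main fit at an adjusted p under 0.01, where a count of 0 was certain. Others left out a library that was in neither group compared. Counts of members called, 0 in each fit as reported, were 0 in 131 of these 140. For differentiation without dox they were 1 with median centring (56 of all tested regions, against 29 as reported), 5 with log2 of −log10 p (128), and 1 with replicate numbers 1 and 2 against 3 and 4 as a term (84). The paired fit with the replicate block called 2, also with the GC correction, and changed no other call of a member. For differentiation with dox they were 2 with log2 of −log10 p and 15 with array weights, where 139 and 285 of all regions were called, against 5. Leaving out 1 library gave 0 to 1 for dox in GM, 0 to 2 for differentiation without dox and 0 in the other comparisons and the interaction. The cause was not tested. Over all tested regions the block moved calls from 29 to 133 for differentiation without dox, from 5 to 39 for differentiation with dox and from 0 to 10 for dox in DM. None of the 434 alternative values of the differences of members named for low p had the opposite sign, and 12 passed the threshold. These members were chosen for low p in the same libraries, and some settings keep the main difference unchanged. The shared sign was therefore nearly fixed in advance and is no support. In windows of 50 bp on either side of the summit, CCAAT was found in 35.9% of members and 11% of distal regions open in every library, and CAGCTG in 5.17% and 13.2%. Depth was known only as an estimate from fold and p.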
